A study of Mus musculus with 72 samples.

Results

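The Hox genes of the 4 mouse clusters were followed through a neuroectodermal differentiation of embryonic stem cells with and without Nup133, a subunit of the Y-complex of the nuclear pore. All protein-coding genes named Hoxa, Hoxb, Hoxc or Hoxd plus a position number were taken, which gave 39 genes of the 45321 genes in the counts that matched the annotation. Each was represented by its transcript with the highest total count. After a filter on low counts 33 of the 39 remained for testing, and Hoxa9, Hoxc10, Hoxc11, Hoxc12, Hoxd10 and Hoxd12 were described by their levels alone. A group of 7 genes (Hoxa6, Hoxa13, Hoxc6, Hoxc8, Hoxc9, Hoxd9 and Hoxd11) passed the filter only through the knockout samples of day 3, so counts over the genes that passed are a description and not independent support.

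Controls were 2 biological replicates of HM1 (Nup133+/+, 40 chromosomes, XY) and the blastocyst-derived line 1A4 (Nup133+/+, Sox1gfp/+, 40 chromosomes, XY). Knockouts were lines 14 and 19, Nup133-/- derivatives of HM1 edited with CRISPR/Cas9 (40 chromosomes, XY, for line 19 given as likely), and line 319 (Nup133merm/merm, Sox1gfp/+, 42 chromosomes, XX +8 +12), which came from a blastocyst. Cells grown in serum and LIF (leukaemia inhibitory factor) on inactivated mouse embryonic fibroblasts were separated from these feeders and collected at day 0, or moved to serum-free N2B27 medium and collected at day 2, or given 1 µM all-trans retinoic acid at day 2 for 24 h and collected at day 3. Each group of genotype and day held 3 biological samples. Every line is a single line or clone, so p-values measure the spread between these samples, and differences between lines cannot be told apart from differences between genotypes where they coincide. The Hox clusters lie on chromosomes 6, 11, 15 and 2, not on the chromosomes that line 319 carries in extra copies.

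Hox genes encode homeodomain transcription factors that give cells along the head-to-tail axis their positional identity. Genes of the same position number in different clusters are paralogues, and low numbers (anterior genes, at the 3′ end of a cluster) are used in the hindbrain while high numbers (posterior genes, at the 5′ end) are used in the trunk and tail. Retinoic acid switches on anterior genes first, through its receptors at response elements in and around the clusters, whereas Cdx factors and Wnt and Fgf signals act on the more posterior genes. Polycomb complexes keep the clusters silent in pluripotent cells.

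Promoter windows of 300 bases (250 before and 50 after the RefSeq start, build GRCm38.p6) were available for 22 of the 39 genes, as 24 windows. Shown are a pair from the Hoxb cluster that behaved differently at day 3, Hoxb8 (a called difference) and Hoxb4 (a difference near 0), and a pair at position 1, Hoxd1 (called) and Hoxb1 (not called). Capitals mark 4 motifs on either strand. TTTATG is a Cdx half-site. TATAAA is the sequence of a TATA box, marked wherever it lies in the window. AGGTCA is a half-site of retinoic acid receptors. CCAAT is the CCAAT box. The windows run 5′ to 3′ on the gene's strand, which is the plus strand for all 4: chr11:96281655-96281954 for Hoxb8, chr11:96318017-96318316 for Hoxb4, chr2:74762730-74763029 for Hoxd1 and chr11:96365508-96365807 for Hoxb1.
Hoxb8: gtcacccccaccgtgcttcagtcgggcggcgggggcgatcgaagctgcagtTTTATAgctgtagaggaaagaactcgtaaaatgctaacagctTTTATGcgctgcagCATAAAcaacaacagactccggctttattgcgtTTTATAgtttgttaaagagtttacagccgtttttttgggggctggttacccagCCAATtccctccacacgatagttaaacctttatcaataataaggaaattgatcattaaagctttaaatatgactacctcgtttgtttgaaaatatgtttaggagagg
Hoxb4: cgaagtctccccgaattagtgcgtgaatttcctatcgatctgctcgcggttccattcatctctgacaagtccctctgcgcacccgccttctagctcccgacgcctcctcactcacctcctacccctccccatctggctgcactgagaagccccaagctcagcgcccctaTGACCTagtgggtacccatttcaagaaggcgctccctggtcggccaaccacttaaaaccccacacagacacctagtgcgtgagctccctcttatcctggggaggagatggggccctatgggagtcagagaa
Hoxd1: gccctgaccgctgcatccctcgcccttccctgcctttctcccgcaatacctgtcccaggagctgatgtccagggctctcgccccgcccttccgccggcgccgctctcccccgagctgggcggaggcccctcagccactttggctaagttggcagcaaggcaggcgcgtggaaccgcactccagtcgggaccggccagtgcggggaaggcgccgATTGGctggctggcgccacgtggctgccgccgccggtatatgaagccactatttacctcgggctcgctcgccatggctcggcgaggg
Hoxb1: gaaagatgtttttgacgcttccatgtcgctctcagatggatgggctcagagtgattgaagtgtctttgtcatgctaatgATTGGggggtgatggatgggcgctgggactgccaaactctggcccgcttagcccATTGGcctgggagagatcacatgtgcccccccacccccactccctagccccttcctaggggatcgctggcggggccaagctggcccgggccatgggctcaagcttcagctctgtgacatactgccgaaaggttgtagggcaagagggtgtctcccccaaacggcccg
TTTATG stood in 5 of the 24 Hox windows (20.8%), against 11.9% of all 32851 windows, and the Hoxb8 window held 2 matches. TATAAA stood in 4 (16.7%, against 13.6% of all), with 2 matches in Hoxb8. These 2 were on the opposite strand, at bases 52 and 141 of the window, and the RefSeq start follows base 250. AGGTCA stood in 7 (29.2%, against 16.3%), with 1 match in Hoxb4, and CCAAT in 15 (62.5%, against 37.4%). The direct repeat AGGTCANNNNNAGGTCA was in 0 of the Hox windows and in 3 of all windows (0.00913%). Hox windows held a median of 14.5 CG pairs, against 7 over all windows: Hoxd1 held 29, Hoxb4 14, Hoxb8 13 and Hoxb1 10. These matches are letters in a window and not measured binding.

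Levels are given as CPM (counts per 1000000 counts, scaled with TMM), and levels of different genes are compared per kilobase of transcript. The counts of a sample came from 4 technical libraries and totalled 16.47 to 54.39 M over genes (M stands for 1000000). Nup133 RNA stood at 179.5 to 323.4 CPM in the 9 control samples and at 14.34 to 37.14 CPM in the 9 knockout samples, so the libraries matched their labels. Genes were tested with edgeR's quasi-likelihood test over all 18273 genes that passed the filter, with p-values adjusted by the Benjamini-Hochberg method over these genes. A call means an adjusted p under 0.05. Log2 fold changes are given with their standard error (SE).

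Reads shared between overlapping genes touched few members. In the Hoxb cluster (chr11:96194316-96368256) no member shared exonic bases with another gene on its strand, in the Hoxc cluster (chr15:102921103-103036852) 1 did, in the Hoxa cluster (chr6:52155590-52260803) 2 did and in the Hoxd cluster (chr2:74668310-74765142) 4 did. The shares were 58.7% of the exonic bases of Hoxd3, 45.1% of Hoxd4, 15.0% of Hoxa2, 13.5% of Hoxd11, 10.1% of Hoxa3, 8.7% of Hoxc10 and 5.7% of Hoxd10, so their levels, and those of Hoxd3 and Hoxd4 above all, are uncertain.

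Before retinoic acid the clusters were nearly silent in every sample. Summed over the 39 genes, the level at day 0 was 4.366 and 4.820 CPM per kilobase in the HM1 replicates and 4.907 in line 1A4, against 6.631 in line 14, 6.721 in line 19 and 7.945 in line 319. All 3 knockout lines stood above all 3 controls, but no test was run on this sum. The member with the highest day 0 level per kilobase in the controls was Hoxc13, the last gene of its cluster. Hoxc13 stood at 2.210, 2.883 and 1.636 CPM in the controls (HM1 replicates 1 and 2, line 1A4) and at 4.354, 3.904 and 3.365 CPM in lines 14, 19 and 319. It was at 0.911 CPM per kilobase on average, while Hoxb9 was at 0.488 and Hoxa7 at 0.345.

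At day 0, 0 of 33 Hox genes were called by edgeR between knockout and control, where 0.854% of all genes tested were called. At an unadjusted p under 0.05 there were 6 (Hoxa4, Hoxa7, Hoxa10, Hoxa13, Hoxd11 and Hoxd13), against 1946 of all 18273 genes tested. Each of the 6 had a higher mean in the knockouts, and DESeq2 called 1 of the 33. Of those 6, Hoxd13, a gene of the digits and the genital tubercle, stood at 0.546, 0.408 and 1.037 CPM in the controls and at 1.269, 1.604 and 1.468 CPM in lines 14, 19 and 319 (log2 fold change 1.19 ± 0.34 SE, adjusted p = 0.13, edgeR). Hoxd13 was 1 of 11 genes with all 3 knockout lines above all 3 controls, against 8.06% of all genes tested, and 1 gene had the reverse, against 9.70%.

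Part of the residual Hox RNA fell in the controls over the step from day 0 to day 2, out of serum and LIF. Between these days 12 of 33 genes were called, 0 higher and 12 lower, against 35.2% of all genes called and 15.5% called lower. Among the genes that fell were Hoxa3, Hoxa5, Hoxa7, Hoxa10, Hoxa11, Hoxb3, Hoxb9, Hoxb13, Hoxc13, Hoxd8 and Hoxd9. Hoxd8 fell by 2.60 on the log2 scale (± 0.48 SE, adjusted p = 0.00069, edgeR), from a mean of 0.771 to 0.127 CPM. In the knockouts 10 were called, against 35.9% of all genes. The 2 that rose (against 20.8% called higher) were Hoxb1, with at most 3 counts in each sample of day 0, and Hoxd1, from a mean of 0.102 to 0.353 CPM. The 8 that fell (against 15.1% called lower) were Hoxa4, Hoxa10, Hoxa11, Hoxa13, Hoxb9, Hoxb13, Hoxc13 and Hoxd11. The number of calls rests on single series, each left out at all 3 days together. Without HM1 replicate 1 it was 3 in the controls and 5 in the knockouts. Without HM1 replicate 2 it was 4 in the controls, without line 1A4 it was 7 there, and without line 14 the knockouts gave 3. With each series as a replicate block, Hoxa3 and Hoxd9 in the controls and Hoxc13, Hoxb1 and Hoxd11 in the knockouts were no longer called (adjusted p = 0.051, 0.056, 0.052, 0.057 and 0.06), and Hoxb4 in the controls was (adjusted p = 0.034). Of the 14 feeder fibroblast markers that passed the filter, 6 were called lower and 2 higher in the controls over this step. In the knockouts 7 of them were called lower and 3 higher. The change of medium and a loss of feeder RNA cannot be told apart here.

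The anterior genes of all 4 clusters rose in the controls over the step in which retinoic acid was given. Every day 3 sample had received it and no day 2 sample had, so the agent and the further 24 h of differentiation cannot be told apart. Between day 2 and day 3, 23 of 33 Hox genes were called, 23 higher and 0 lower, against 21.4% of all genes called and 12.5% called higher. All 12 genes of positions 1 to 4 rose, with a median log2 fold change of 7.81, and so did 9 of the 11 genes of positions 5 to 8 (median 4.48 over the 11). Of positions 9 to 13, Hoxb9 and Hoxb13 rose, 2 of the 10 that passed the filter, with a median of 1.08 over the 10. The median over all genes tested was 0.004. By cluster, 10 of 10 Hoxb genes rose, 7 of 10 Hoxa, 2 of 6 Hoxc (Hoxc4 and Hoxc5) and 4 of 7 Hoxd (Hoxd1, Hoxd3, Hoxd4 and Hoxd8). Among these, Hoxb13 and Hoxd8 rose from a low at day 2 and did not reach their day 0 mean. Hoxb13 had a control mean of 0.235 CPM at day 0 and 0.178 CPM at day 3, and Hoxd8 of 0.771 and 0.578 CPM.

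**Figure D1:**
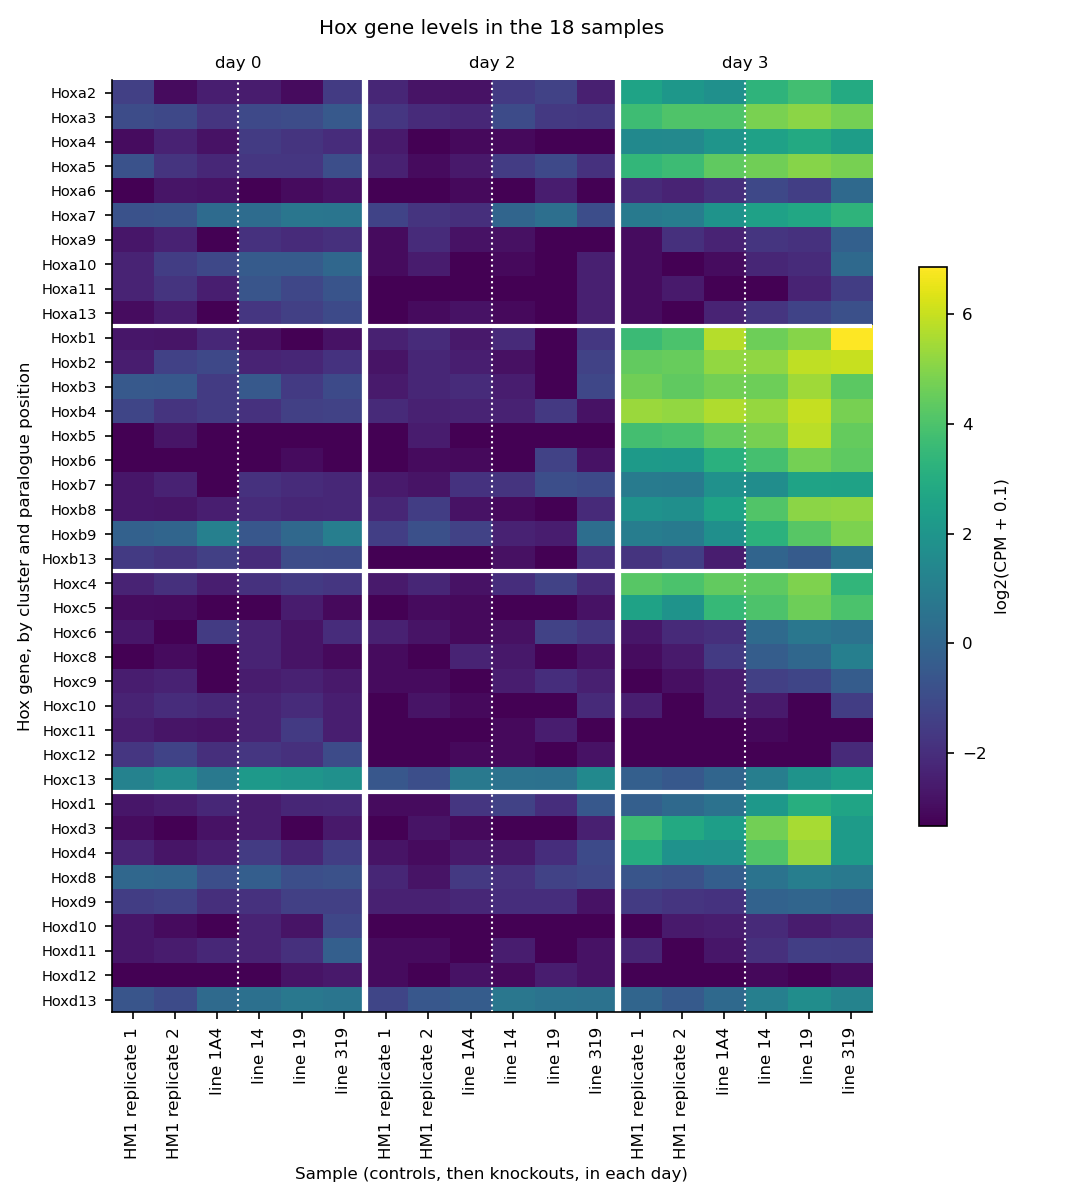
Level of 38 Hox genes (rows, by cluster and position) in the 18 samples (columns, by day; controls left and knockouts right of each dotted line), as log2(CPM + 0.1). The bright block at day 3 covers the anterior genes in all samples, with Hoxb4 between 27.25 and 62.28 CPM, and it reaches further down the Hoxb rows in the knockouts.

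Most of the Hox RNA of the controls at day 3 came from the anterior genes. Positions 1 to 4 together made up 89.0%, 88.9% and 85.5% of the summed level per kilobase in HM1 replicates 1 and 2 and line 1A4, and positions 9 to 13 made up 0.9%, 0.8% and 0.9%.

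Hoxb4, which takes part in the hindbrain and in blood stem cells, stood at 39.67, 36.90 and 50.11 CPM in the controls at day 3, after 0.135, 0.093 and 0.101 CPM at day 2. Hoxb2, a gene of hindbrain segment identity, reached 21.45, 22.64 and 37.17 CPM. Hoxb1, which marks the fourth hindbrain segment, reached 12.33 and 15.56 CPM in HM1 and 52.79 CPM in line 1A4, so the blastocyst-derived control stood well above the HM1 samples. Per kilobase the Hoxb cluster was led in the controls by Hoxb2 (16.64 CPM per kilobase), Hoxb4 (16.46) and Hoxb1 (12.89), and the ranges of these 3 genes overlapped.

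Hoxc4 led its cluster at day 3, with 18.68, 15.66 and 21.06 CPM in the controls, followed by Hoxc5 with 5.760, 3.640 and 11.19 CPM. Hoxd3 and Hoxd4 led the Hoxd cluster, with 13, 7.247 and 5.102 CPM and 7.725, 3.574 and 3.436 CPM, and their levels are uncertain because of the exonic bases they share. From Hoxc6 upward the Hoxc genes stayed at or under 0.234 CPM in each control at day 3, with the exception of Hoxc13 at 0.754, 0.601 and 0.911 CPM.

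In the knockouts the same step gave 29 of 33 genes called, 29 higher and 0 lower, against 33.6% of all genes called and 17.6% called higher. The median log2 fold change was 5.67, against 0.003 over all genes tested. All 12 genes of positions 1 to 4 and all 11 of positions 5 to 8 rose, as did 6 of the 10 tested at positions 9 to 13. The 4 that were not called were Hoxa11, Hoxc13, Hoxd11 and Hoxd13. A gene called in one genotype and not in the other is not thereby different between them, and the test of that difference is given further on.

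At day 3, after retinoic acid, 17 Hox genes were higher in the Nup133 knockouts and none was lower, most of them at positions 5 to 13. These 17 of 33 genes called between knockout and control stand against 5.20% of all genes called and 2.75% called higher. The estimate was above 0 for 32 of 33 genes, with a median log2 fold change of 1.63 against 0.018 over all genes tested. Of the 33, 23 had all 3 knockout lines above all 3 controls, against 17.6% of all genes tested. By position, 2 of 12 genes of positions 1 to 4 were called (median 0.97), 7 of 11 of positions 5 to 8 (median 1.63) and 8 of the 10 tested of the 16 at positions 9 to 13 (median 2.29). By cluster, 4 of 10 Hoxa, 4 of 10 Hoxb, 5 of 6 Hoxc and 4 of 7 Hoxd genes that passed the filter were called. At positions 5 to 8, Hoxa6, Hoxc6 and Hoxc8 passed the filter only through these knockout samples. At positions 9 to 13, Hoxa13, Hoxc9, Hoxd9 and Hoxd11 did. They could enter only with a high knockout value, so the filter in part sets these counts and medians by position and cluster.

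The calls depend on the HM1 samples, where leaving out a replicate or line removes it at all 3 days. Without HM1 replicate 1, 0 of 33 Hox genes were called (37 of all genes tested) and without HM1 replicate 2, 1 was called (17 of all genes), although all 17 estimates stayed above 0 with medians of 2.50 and 2.46 on the log2 scale, against 2.39 with all samples. Without line 1A4 the count was 11 (against 1.87% of all genes called) and without line 14 it was 11 (against 2.49%). With the counts of all transcripts of a gene added up it was 10 (against 4.03%). Leaving aside the genes that passed the filter only through the knockout samples of day 3, 12 of 26 were called, with a median of 1.43 over the 26.

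**Figure D2:**
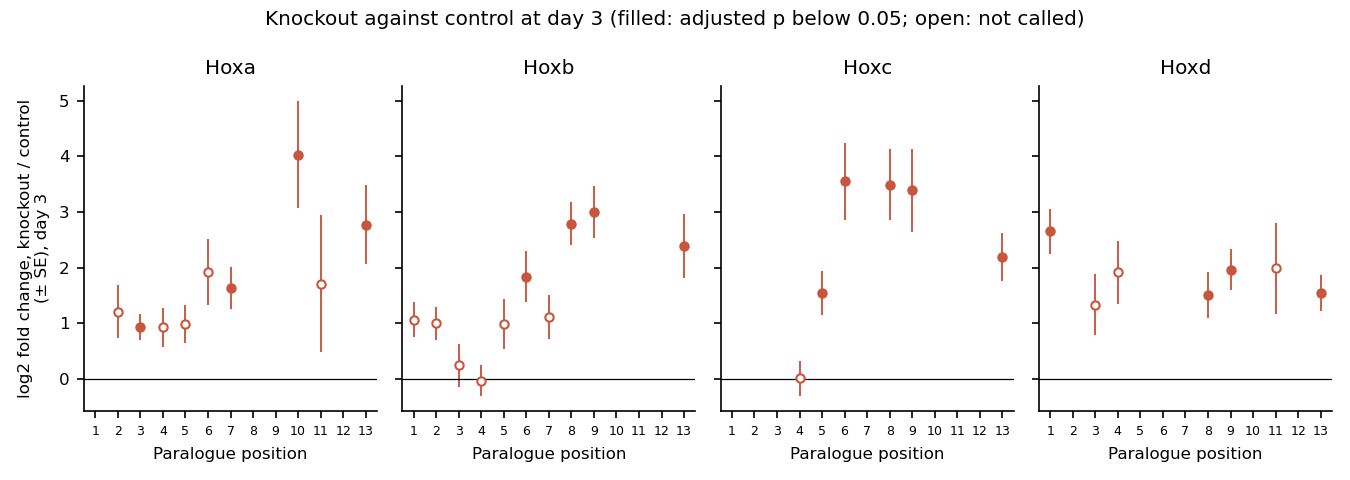
Log2 fold change of knockout against control at day 3 (y axis, ± SE) for 32 of the Hox genes that passed the filter, by paralogue position (x axis) and cluster (panels). Filled points have an adjusted p under 0.05 by edgeR's quasi-likelihood test. In Hoxa, Hoxb and Hoxc the low positions lie nearer to 0 than the high ones, and Hoxd1 stands at 2.65.

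Of the pair Hoxd1 and Hoxb1, both at position 1, Hoxd1 rose in the knockouts and Hoxb1 was not called. Hoxd1, whose product acts in pain-sensing neurons, stood at 0.754, 1.002 and 1.328 CPM in the controls and at 4.248, 8.171 and 6.081 CPM in lines 14, 19 and 319, without overlap (log2 fold change 2.65 ± 0.41 SE, adjusted p = 0.0034, edgeR). For Hoxb1 the groups overlapped, because line 1A4 (52.79 CPM) stood above lines 14 (24.63) and 19 (32.27), while line 319 reached 116.0 CPM. Its estimate was 1.07 ± 0.31 SE (adjusted p = 0.056, edgeR).

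The other called gene of positions 1 to 4 was Hoxa3. Hoxa3, a gene of the thymus, parathyroid and hindbrain, stood at 12.78, 16.36 and 16.37 CPM in the controls and at 27.79, 33.78 and 26.14 CPM in lines 14, 19 and 319 (0.94 ± 0.24 SE, adjusted p = 0.034, edgeR; 0.11 with transcripts added up). Hoxb2 overlapped between groups, with 36.22, 58.60 and 63.37 CPM in the knockout lines (1.00 ± 0.30 SE, adjusted p = 0.067). Hoxb4 and Hoxc4 stood at nearly equal means. Hoxb4 was at 37.41, 62.28 and 27.25 CPM in lines 14, 19 and 319 (-0.03 ± 0.27 SE, 95% interval -0.60 to 0.55), so line 19 stood above and line 319 below every control. Hoxc4 was at 19.92, 29.76 and 10.20 CPM (0.01 ± 0.31 SE, 95% interval -0.65 to 0.68), in the same order of lines. These intervals leave room for a change in either direction, and the sign of both estimates changes with the setting.

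**Figure D3:**
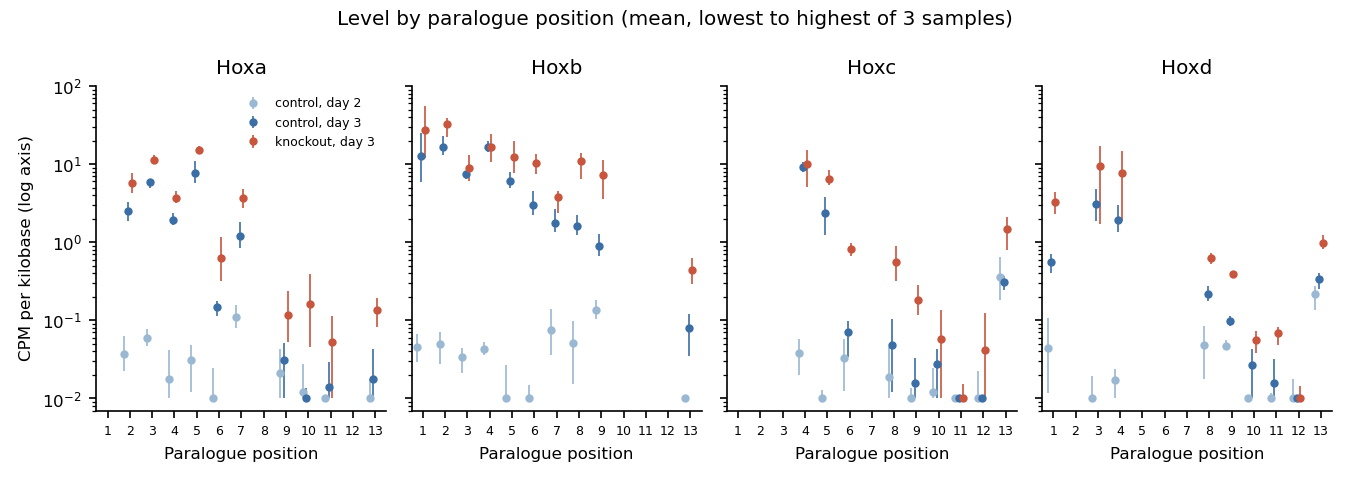
Level in CPM per kilobase (log y axis) by paralogue position (x axis) for each cluster in controls at day 2, controls at day 3 and knockouts at day 3; points are means and bars run from the lowest to the highest of 3 samples. Values under 0.01 are drawn at 0.01. In the controls at day 3 the Hoxb level falls from 16.64 at Hoxb2 to 0.894 at Hoxb9, while in the knockouts Hoxb8 is at 10.95 and Hoxb9 at 7.336.

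Hoxa5, a gene of the lung and the axial skeleton, did not overlap between the groups and was not called: it stood at 10.71, 12.52 and 20.59 CPM in the controls and at 25.36, 32.31 and 27.48 CPM in lines 14, 19 and 319 (0.99 ± 0.34 SE, adjusted p = 0.098, edgeR). Neither Hoxd3 nor Hoxd4 was called, and both stood highest in lines 14 and 19. Hoxd3 stood at 25.57, 46.41 and 4.710 CPM in lines 14, 19 and 319 (1.34 ± 0.55 SE, adjusted p = 0.16), and Hoxd4 at 16.98, 37.56 and 4.761 CPM (1.92 ± 0.57 SE, adjusted p = 0.062). In the HM1-derived lines alone both were called, at 1.81 and 2.25 on the log2 scale (adjusted p = 0.044 and 0.019).

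Of the 11 genes of positions 5 to 8, 7 rose: Hoxa7, Hoxb6, Hoxb8, Hoxc5, Hoxc6, Hoxc8 and Hoxd8. Hoxb8, which specifies thoracic vertebrae and is used in the developing spinal cord, stood at 3.526, 3.273 and 5.831 CPM in the controls and at 16.99, 33.54 and 36.05 CPM in lines 14, 19 and 319. The lowest knockout line was above the highest control, and the difference was the one with the smallest adjusted p of the 33 genes (2.79 ± 0.38 SE, adjusted p = 0.0017, edgeR). Its promoter window is the first printed above, and that of Hoxb4, with an estimate near 0, the second.

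Hoxb6 stood at 4.603, 4.442 and 8.825 CPM in the controls and at 14.51, 26.78 and 20.34 CPM in lines 14, 19 and 319 (1.84 ± 0.47 SE, adjusted p = 0.039; 0.23 with DESeq2, 0.1 with transcripts added up and 0.071 without a background term). Hoxa7 stood at 1.696, 1.870 and 3.696 CPM against 5.637, 6.832 and 9.755 CPM (1.63 ± 0.38 SE, adjusted p = 0.023, edgeR; 0.052 with transcripts added up). Both genes are used in the trunk, and neither overlapped between the groups. Hoxc5 stood at 5.760, 3.640 and 11.19 CPM against 15.97, 24.24 and 15.78 CPM (1.55 ± 0.40 SE, adjusted p = 0.037). This call was lost with transcripts added up (adjusted p = 0.11) and without a background term (0.074), and line 319 stood 1.41-fold above line 1A4.

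Hoxc6 and Hoxc8, genes of the brachial and thoracic trunk, were close to silent in the controls. Hoxc6 stood at 0.054, 0.134 and 0.156 CPM in the controls and at 1.058, 1.545 and 1.320 CPM in lines 14, 19 and 319 (12 counts in the controls together, 160 in the knockouts). The estimate was 3.55 ± 0.70 SE (adjusted p = 0.011, edgeR; 0.054 with transcripts added up). Hoxc8 stood at 0.027, 0.067 and 0.234 CPM against 0.711, 0.961 and 2.018 CPM (3.49 ± 0.64 SE, adjusted p = 0.0085). Both were among the genes that passed the filter only through these knockout samples. Hoxd8, at 0.538, 0.468 and 0.729 CPM against 1.388, 1.923 and 1.656 CPM, had an estimate of 1.51 ± 0.41 SE (adjusted p = 0.046). Its call was lost without a low-count filter (adjusted p = 0.054), with transcripts added up (0.072) and without a background term (0.065). It was also lost in 5 of 6 fits that left out 1 series at all days.

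**Figure D4:**
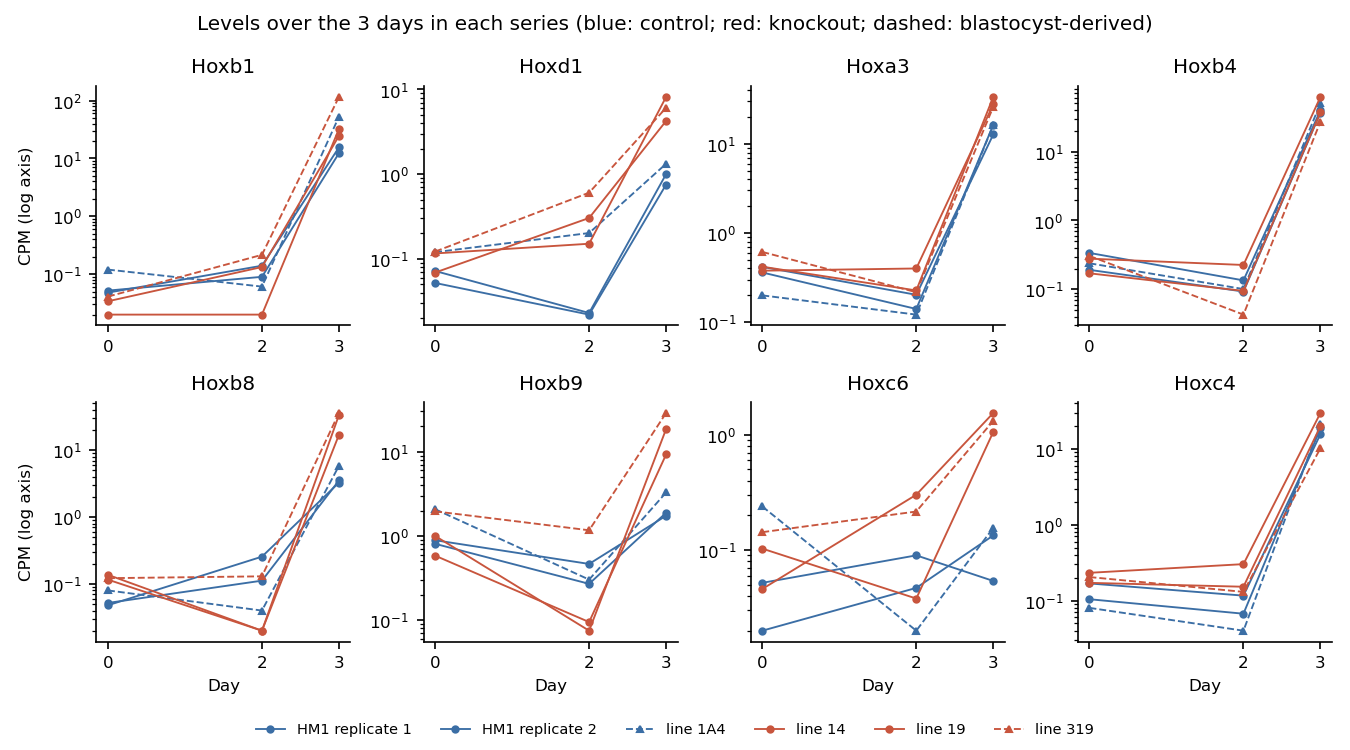
Level (CPM, log y axis) of 8 Hox genes at days 0, 2 and 3 (x axis), 1 line per series: controls in blue, knockouts in red, HM1-derived series solid and blastocyst-derived series dashed. Values under 0.02 are drawn at 0.02. At day 3 the red and blue lines of Hoxb4 and Hoxc4 interleave, while those of Hoxb8, Hoxb9, Hoxc6 and Hoxd1 are apart.

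Of the 16 genes of positions 9 to 13, 8 rose, from low control levels: Hoxa10, Hoxa13, Hoxb9, Hoxb13, Hoxc9, Hoxc13, Hoxd9 and Hoxd13. Hoxb9, a gene of the thoracic axis, stood at 1.884, 1.737 and 3.280 CPM in the controls and at 9.273, 18.57 and 28.80 CPM in lines 14, 19 and 319, an 8.21-fold difference of the means (3.00 ± 0.47 SE, adjusted p = 0.0035, edgeR). Hoxb13, a gene of the tail and the prostate, stood at 0.188, 0.267 and 0.078 CPM against 0.876, 0.652 and 1.397 CPM (2.39 ± 0.57 SE, adjusted p = 0.031; 0.093 in HM1-derived lines alone). Hoxc13, a gene of hair and nails, stood at 0.754, 0.601 and 0.911 CPM against 1.950, 3.673 and 5.124 CPM (2.20 ± 0.43 SE, adjusted p = 0.011). In none of these 3 genes did the groups overlap.

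Hoxd9 stood at 0.242, 0.200 and 0.182 CPM in the controls and at 0.810, 0.893 and 0.776 CPM in the knockouts (1.97 ± 0.37 SE, adjusted p = 0.0087, edgeR). Hoxd13 stood at 0.888, 0.635 and 1.015 CPM against 2.017, 3.055 and 2.277 CPM (1.54 ± 0.33 SE, adjusted p = 0.016). The rest of the called posterior genes were under 0.5 CPM on average. Hoxc9 was at least 5.01-fold higher (against 3 counts in each control). Hoxa13 was 7.43-fold higher on the means, with 5 counts in the controls together. Its call was lost without a background term (adjusted p = 0.077), with transcripts added up (0.13) and in all 6 fits that left out 1 series. Hoxa10 was carried by line 319, at 1.009 CPM (39 counts) against 0.116 and 0.137 CPM in lines 14 and 19 (7 and 4 counts) and at most 1 count in each control, and in the HM1-derived lines alone it was not called (adjusted p = 0.13). The 8 remaining genes that were not called (Hoxa2, Hoxa4, Hoxa6, Hoxa11, Hoxb3, Hoxb5, Hoxb7 and Hoxd11) had estimates from 0.25 for Hoxb3 to 1.99 for Hoxd11, and 4 of them (Hoxa2, Hoxa4, Hoxa6 and Hoxd11) did not overlap between the groups. The 6 genes that did not pass the filter stayed at or under 0.776 CPM in every sample of day 3.

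The shares of the position classes in the summed Hox level also lay apart, which was not tested. Positions 1 to 4 made up 80.4%, 76.6% and 76.6% of the summed level per kilobase in lines 14, 19 and 319, under the 85.5% to 89.0% of the controls. Positions 9 to 13 made up 2.3%, 2.8% and 4.8%, above the 0.8% to 0.9% of the controls. The sum itself was 285.9, 398.6 and 348.1 CPM per kilobase in the knockout lines and 187.6, 189.5 and 255.0 in the controls.

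Across the 33 genes, the day 3 log2 fold change had a Pearson correlation of 0.54 with paralogue position (Spearman 0.62) and of -0.78 with the control level per kilobase (Spearman -0.83). The control level itself had a correlation of -0.77 with position, so position and level cannot be told apart. The same control samples also enter the fold change, so a negative correlation of fold change with control level is in part built in. The 7 genes that passed the filter only through the knockout samples of day 3 could enter only with a high knockout value, and over the 26 others the correlations were 0.53 with position (Spearman 0.56) and -0.74 with level (Spearman -0.79). These correlations are descriptions: the genes share the same libraries and, in a cluster, their neighbourhood. Within clusters the correlation with position was 0.78 in Hoxa (10 genes), 0.73 in Hoxb (10), 0.42 in Hoxc (6) and -0.38 in Hoxd (7), where the first gene, Hoxd1, had the largest estimate.

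The ratios of the 3 knockout lines lay apart, with 1 sample each and no test. Against the controls of their own background, line 19 had the highest ratio for all 12 genes of positions 1 to 4, and line 319 had ratios under 1 for Hoxb3, Hoxb4, Hoxb5, Hoxc4 and Hoxd3. Line 319 was at 0.484 of line 1A4 for Hoxc4 and at 0.544 for Hoxb4. For Hoxb8 the ratios of lines 14, 19 and 319 were 5, 9.87 and 6.18, and for Hoxb9 they were 5.12, 10.3 and 8.78. With line 319 left out, 19 of the tested Hox genes were called, against 10.8% of all genes. With the HM1-derived lines alone 18 were, against 6.06%.

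**Figure D5:**
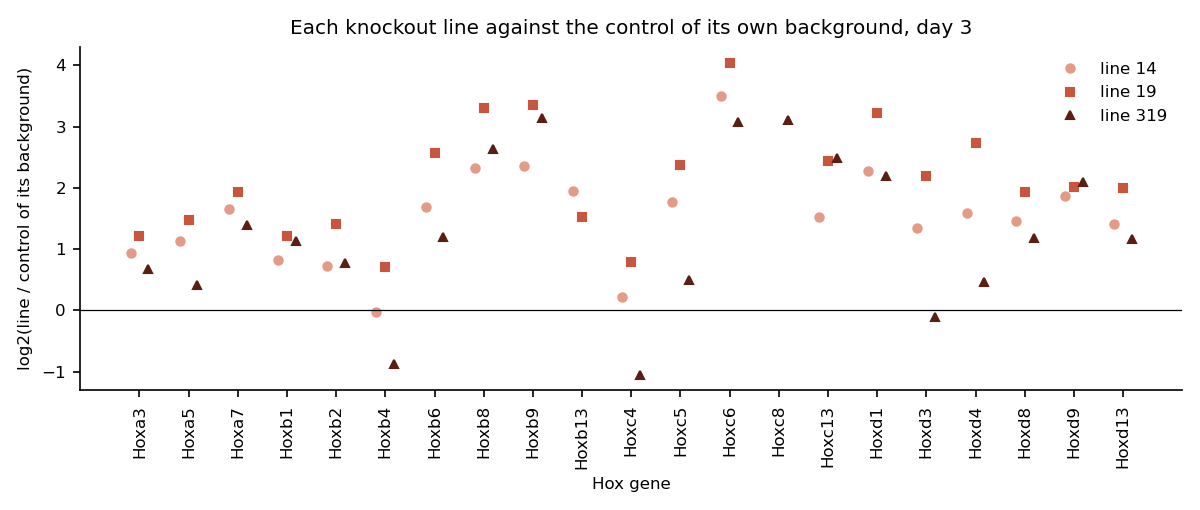
Log2 ratio of each knockout line at day 3 (y axis) to the control of its own background (the mean of the HM1 replicates for lines 14 and 19, line 1A4 for line 319), for the Hox genes described singly (x axis). Points are left out where the control held 3 counts or fewer, added over both replicates for HM1. Line 319 is under 0 for Hoxb4, Hoxc4 and Hoxd3 and above 2 for Hoxb8, Hoxb9 and Hoxc13.

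At day 2, before retinoic acid, 3 of 33 Hox genes were called and all 3 were higher in the knockouts, Hoxa7 and Hoxd13 among them, against 1.60% of all genes called and 0.635% called higher. Hoxa7 stood at 0.315, 0.186 and 0.162 CPM against 0.893, 1.206 and 0.432 CPM in lines 14, 19 and 319 (1.92 ± 0.46 SE, adjusted p = 0.05 by edgeR, just under the threshold), and Hoxd13 at 0.337, 0.581 and 0.687 CPM against 1.521, 1.357 and 1.340 CPM (1.42 ± 0.34 SE, adjusted p = 0.048). All 3 were among 8 genes whose knockout lines all stood above all controls, against 9.94% of all genes tested. None of the 3 was called without HM1 replicate 1, HM1 replicate 2 or line 14, or when the samples of day 2 were fitted alone.

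Whether the retinoic acid step itself differed between genotypes was tested as the change from day 2 to day 3 compared between them. Of 33 Hox genes 0 were called by edgeR, against 0.0383% of all genes (7 genes). At an unadjusted p under 0.05 there were 6, against 1626 of all 18273 genes tested. DESeq2 called 2, and without line 319 edgeR called 1. The smallest p was that of Hoxb8 (4.28 ± 0.88 SE larger rise in the knockouts, adjusted p = 0.15), followed by Hoxb9 (3.04 ± 0.74 SE, adjusted p = 0.26). Hoxb8 held at most 3 counts in each knockout sample of day 2, so the size of its estimate is uncertain. The counts of calls of each genotype alone, 23 and 29, therefore do not show that the step differed.

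Hox proteins bind DNA with the cofactors of the Pbx, Meis and Pknox families. Of 9 cofactor genes, all tested, 1 rose and 0 fell in the knockouts at day 3. For these lists, as for the markers further on, the share over all genes tested was 5.20% called and 2.75% called higher, and the median was 0.018. An unadjusted p under 0.05 was reached by 4002 of these 18273 genes, and DESeq2 called 11.3% of them. The gene that rose was Meis1, named here after its values were seen: 50.14, 43.42 and 36.91 CPM in the controls and 104.0, 133.7 and 65.00 CPM in lines 14, 19 and 319 (1.16 ± 0.19 SE, adjusted p = 0.0048, edgeR). Pbx2 (0.00 ± 0.16 SE, adjusted p = 0.99), Meis2 (0.67 ± 0.32, 0.23) and Pknox1 (0.23 ± 0.19, 0.53), among the 4 with the highest levels, were not called.

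Of the 28 genes that passed the filter among 29 inducers of Hox genes and members of the retinoic acid pathway, 5 rose and 2 fell, which is 7 of 28 against the 5.20% of all genes, with a median log2 fold change of 0.25. Of the 4 with the highest levels, Rarg, a retinoic acid receptor, fell by 0.95 on the log2 scale (± 0.23 SE, adjusted p = 0.026, edgeR), and Crabp2 and Ncor1 were not called (adjusted p = 0.78 and 0.64). Named after their values were seen, Cyp26a1, the enzyme that degrades retinoic acid, stood at 59.81, 62.85 and 68.31 CPM in the controls and at 136.5, 120.0 and 194.7 CPM in lines 14, 19 and 319 (1.24 ± 0.30 SE, adjusted p = 0.028). Cdx2 was called (3.26 ± 0.89 SE, adjusted p = 0.045), but it stood at 0.74 and 0.52 CPM in lines 14 and 19, at 19.7 CPM in line 319 and at 0.24, 0.30 and 0.91 CPM in the controls. High Cdx2 was thus seen in line 319 alone, and the part of Cdx2 in the Hox result was not tested.

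Of 8 hindbrain regulators 2 rose and 0 fell at day 3 (median 0.32). Sall4, Zic2 and Gbx2, among the 4 with the highest levels, were not called (adjusted p = 0.16, 0.69 and 0.5), and the 2 that rose were Irx3 and Zic1. Of 29 Polycomb genes 1 rose, Bmi1, and 1 fell, Ezh1, with a median of 0.01, so that the 2 calls of 29 lie near the 5.20% of all genes. Of this list Rbbp4, Phc1, Jarid2 and Rbbp7, the 4 with the highest levels, were not called (adjusted p = 0.35, 0.7, 0.98 and 0.97). Of the 15 Trithorax and demethylase genes that passed the filter, 0 were called by edgeR or DESeq2 and 2 had an unadjusted p under 0.05 (median 0.13). The 4 highest were Rad21, Smc3, Ash2l and Wdr5.

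Among neighbours and non-coding RNAs of the clusters 27 of 32 names matched and 16 passed the filter. Of these, 0 were called by edgeR between knockout and control at day 3, 1 was called by DESeq2 and 3 had an unadjusted p under 0.05. From day 2 to day 3 in the controls 10 of the 16 rose, against 12.5% of all genes called higher over that step. The 4 highest were the flanking genes Hibadh, Snx10, Skap2 and Mtx2 (adjusted p = 0.41, 0.9, 0.85 and 0.29). Values noticed afterwards were those of Hoxaas2, an antisense RNA of the Hoxa cluster, at 4.603, 4.642 and 5.753 CPM in the controls and 2.231, 2.575 and 2.432 CPM in lines 14, 19 and 319 (-1.06 ± 0.49 SE, adjusted p = 0.22). Haglr, a non-coding RNA of the Hoxd cluster, lay the other way, at 0.78, 0.37 and 0.68 CPM in the controls and 1.36, 2.27 and 2.59 CPM in lines 14, 19 and 319 (1.74 ± 0.54 SE, adjusted p = 0.071). Neither was called.

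In these bulk samples fewer cells of a type and less RNA per cell cannot be told apart. Of 15 fibroblast markers 0 rose and 3 fell at day 3 of the 14 that passed the filter. DESeq2 called 5 of the 14, and 8 had an unadjusted p under 0.05. The summed level of the 15 was 284.7 to 403.2 CPM in the controls and 166.9 to 260.0 CPM in the knockouts. The median log2 fold change of the 14 was 0.10, so the lower sum does not describe the markers as a set. The feeder cells come from embryos and can carry Hox RNA of their own. Of these 15 markers only Lum was at 0 in a knockout sample of day 3.

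Of 8 neuromesodermal and caudal epiblast markers, all tested, 2 rose (Cdx2 and Cyp26a1, which also stand in the list above) and 0 fell. Their sum at day 3 was 80.1 to 107.2 CPM in the controls and 147.0 to 344.8 CPM in the knockouts, with Cdx4 at 0 in 1 knockout sample. Of 6 neural progenitor markers 1 rose, Pax6, which stood above all controls in lines 14 and 19 and within their range in line 319. The sum of the 6 was 295.9 to 352.7 CPM in the controls and 262.2 to 912.4 CPM in the knockouts, lowest in line 319. Of 6 pluripotency markers 0 were called by edgeR or DESeq2 (2 at an unadjusted p under 0.05), with sums of 447.7 to 513.7 CPM and 257.8 to 551.7 CPM. Of 6 neuron markers 1 rose and 1 fell, and of the 5 endoderm markers that passed the filter 1 rose. Of the 7 mesoderm markers that passed, 0 were called by edgeR, 1 by DESeq2, and 4 had an unadjusted p under 0.05; their sum was 10.87 to 16.76 CPM and 12.39 to 51.73 CPM, with Msgn1 at 0 in samples of both groups. The part of these cell types in the Hox result was not tested.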

How the data were processed

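The deposited files hold raw counts per Ensembl transcript for 72 libraries, 4 technical replicates of each of 18 biological samples; per the labels, the authors made strand-specific TruSeq libraries from poly(A) RNA. The submitters' processing notes name mm10, bcl2fastq 2.17.1.14, STAR 2.4.0k, SAMtools and HTSeq, with no roles. How reads shared by transcripts were counted is not given in the sources used here. The counts looked as if such reads were counted for each transcript, so a gene's level was taken from its most counted transcript, and a sum over transcripts was an alternative. Names and positions came from GENCODE M21 (GRCm38, the build of mm10), and 108214 of 110379 identifiers matched. Transcripts covered by highly read genes on the opposite strand held a median of 0.599% of those genes' read density, so counts followed strand.

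Technical replicates were summed (chi-square per degree of freedom 1.009 to 1.028). edgeR 4.0.16 (R 4.3.3, limma 3.58.1) was run with TMM, filterByExpr and robust quasi-likelihood on 18273 genes, with a mean for each of 6 groups (genotype at a day) plus 1 coefficient separating HM1 from blastocyst backgrounds (11 residual degrees of freedom); the script was tested on simulated data. DESeq2 1.42.0 was an alternative. Samples of a series come from 1 line followed over 3 days, which pairs them between days, and their deviations had a correlation above 0.1 in 16 of 18 pairs. A fold against a group of samples with at most 3 counts each is a lower bound, with 3 counts set in each of those samples; the bounds cover counting error only.

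The members and lists were chosen with earlier results of these data known. Values in every sample are given for genes called between genotypes at any day, or in the comparison of the retinoic acid step, with at least 0.5 CPM in the higher group and for the 3 with the highest day 3 control level per kilobase of each cluster. In other lists up to 4 members with the highest mean CPM are named. Single values of 1 Hox gene and 3 list genes are not reported here; counts and sums include them. Promoters came from RefSeq.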

Additional observations from a re-analysis of the deposited data

Results flagged for a closer look

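For 3 Hox genes with at least 1 CPM, lines 14 and 19 were both above both HM1 replicates at day 3 while line 319 was below line 1A4. On the log2 scale, lines 14 and 19 against HM1 gave 1.52 for Hoxb5, 0.53 for Hoxc4 and 1.83 for Hoxd3, and line 319 against line 1A4 gave -0.021 for Hoxb5, -1.05 for Hoxc4 and -0.12 for Hoxd3. The difference between the backgrounds was not tested, since each blastocyst-derived group is 1 sample, and for Hoxb5 and Hoxd3 the ratio in line 319 is near 0. Hoxd3 shares exonic bases with other genes, so its level is uncertain.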

How the results depend on the processing

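Calls of Hox genes between days 2 and 3 (23 and 29) stayed within 1.5 times under every alternative run, and so did those with the replicate block (each series followed over its days), which gave 11, 23, 7 and 29 for the 2 steps in controls and knockouts and 0 for the comparison of the retinoic acid step; apart from the 6 genes named in the report it changed no call. Fits were also run with 1 series left out at a time, at all 3 days together. The count was then 0 to 19 at day 3, 0 to 3 at day 2 and 0 to 1 at day 0. From day 0 to day 2 it was 3 to 15 in the controls and 3 to 11 in the knockouts. From day 2 to day 3 it was 20 to 23 and 25 to 31, and 0 to 1 for the comparison of that step. At day 3 the count of 17 became 10 with all transcripts added up (4.03% of all genes called) and 13 without a background term (2.82%). It was 12 over the 26 genes that passed the filter without the day 3 knockouts (chosen after seeing the data). It became 22 with DESeq2 (11.3% of all genes called), 22 without line 19 at day 2 (15.9%) and 22 of 29 with day 3 fitted alone (15.1%). At day 2 the count of 3 became 1 with all transcripts added up, without a background term, in HM1-derived lines alone and without line 19 at day 2, 0 in that day alone and 6 with DESeq2. DESeq2 gave 1 at day 0, and the comparison of the step gave 2 with DESeq2 and 1 without a low-count filter. The cause of these shifts was not tested. Estimates that changed sign were those of Hoxb4 and Hoxc4 at day 3 and of Hoxc13 in controls from day 2 to day 3. Hoxb4 gave 0.002 without a background term, 0.37 in HM1-derived lines and -0.39 to 0.33 leaving out a series. Hoxc4 gave -0.029 with the longest transcript, -0.014 with transcripts added up and -0.31 to 0.45 leaving out a series. Hoxc13 gave 0.41 in HM1-derived lines and -0.36 to 0.40 leaving out a series. Depth limits the posterior genes: the 6 untested members held few counts.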
